A study of Mus musculus with 15 samples.

Results

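The genes described here are 10 endothelial and angiogenic genes, Pecam1, Cdh5, Kdr, Flt1, Tek, Vwf, Apln, Aplnr, Esm1 and Angpt2, followed in the hearts of mice with chronic kidney disease (CKD) with and without renalase (RNLS) overexpression. They were taken by symbol from the table of read counts, where all 10 were found among 17447 genes. All 15 hearts came from male C57BL/6J mice, 6 to 8 weeks old when enrolled, and were sequenced 18 weeks after surgery, 3 mice in each of 5 groups. WTSHAM were wild-type mice with a sham operation. WTCKD were wild-type mice with CKD from 5/6 nephrectomy that received the control vector, and WTCKD+RNLS were wild-type mice with CKD that received AAV9-cTnT-Rnls, both by tail vein from week 2. KOCKD and KOCKD+RNLS were Rnls knockout mice with CKD, made by TALEN cutting in exon 4, that received the same vector or the same virus. Rnls itself was not analysed here, so the knockout and the transgene are taken from the labels and were not checked in these libraries. The cTnT promoter drives the transgene in cardiomyocytes, so that endothelial cells are not the cells meant to carry it, and the hearts were measured as whole tissue.

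Endothelial cells line the capillaries, arteries, veins and chambers of the heart and are held together by adhesion molecules such as PECAM1 and VE-cadherin (Cdh5). Their growth is steered by vascular endothelial growth factor (VEGF), which signals through VEGFR2 (Kdr), while VEGFR1 (Flt1) binds VEGF tightly and also exists as a soluble form that takes it up. The angiopoietins act through TIE2 (Tek), with angiopoietin 1 as the activating ligand and angiopoietin 2 (Angpt2) as a context-dependent antagonist. Apelin (Apln) and its receptor (Aplnr), and endocan (Esm1), are raised in sprouting vessels, and von Willebrand factor (Vwf) is stored in endothelial granules and carries clotting factor VIII.

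The 10 genes lie on 8 chromosomes, where the mouse annotation GENCODE M1 on NCBIM37 (mm9) gives them no exon base shared with another gene. Kdr (chr5:76328852-76374483) and Flt1 (chr5:148373180-148537587) are on the minus strand of the same chromosome, and Apln (chrX:45378323-45388030) is on the X chromosome. Pecam1 spans chr11:106515531-106611942, Cdh5 chr8:106625525-106668402, Tek chr4:94405980-94541667 and Vwf chr6:125496792-125636697. Aplnr spans chr2:84976517-84980079 as a single exon block, Esm1 chr13:113999867-114008306 and Angpt2 chr8:18690263-18741562. Angpt2 lies within the span of Mcph1 on the opposite strand, and the span of Esm1 overlaps that of Gzmk, also on the opposite strand.

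The promoters of the 2 VEGF receptors and of apelin are shown because each of these genes passed the test in at least 1 RNLS comparison, Flt1 upward and the others downward. Windows of Pecam1, Cdh5, Vwf, Aplnr and Angpt2 were not used here. Those shown are RefSeq windows of 300 bases on GRCm38.p6 around the annotated start of a transcript, at chr5:75978406-75978705 for Kdr, chr5:147725962-147726261 for Flt1 and chrX:48034804-48035103 for Apln, all on the minus strand and written 5′ to 3′. Capitals mark GGAA, the core that factors of the ETS family bind, or its reverse complement TTCC.
Kdr: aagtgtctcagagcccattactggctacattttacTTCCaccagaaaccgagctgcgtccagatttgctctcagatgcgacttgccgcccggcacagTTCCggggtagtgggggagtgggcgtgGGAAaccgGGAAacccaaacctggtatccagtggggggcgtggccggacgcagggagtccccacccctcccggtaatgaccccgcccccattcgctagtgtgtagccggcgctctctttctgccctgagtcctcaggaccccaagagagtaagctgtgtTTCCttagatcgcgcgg
Flt1: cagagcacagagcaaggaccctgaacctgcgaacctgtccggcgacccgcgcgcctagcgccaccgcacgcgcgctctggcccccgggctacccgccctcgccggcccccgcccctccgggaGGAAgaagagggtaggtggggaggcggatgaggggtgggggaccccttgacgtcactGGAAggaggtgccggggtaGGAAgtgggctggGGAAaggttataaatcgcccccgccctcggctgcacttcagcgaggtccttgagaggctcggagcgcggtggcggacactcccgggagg
Apln: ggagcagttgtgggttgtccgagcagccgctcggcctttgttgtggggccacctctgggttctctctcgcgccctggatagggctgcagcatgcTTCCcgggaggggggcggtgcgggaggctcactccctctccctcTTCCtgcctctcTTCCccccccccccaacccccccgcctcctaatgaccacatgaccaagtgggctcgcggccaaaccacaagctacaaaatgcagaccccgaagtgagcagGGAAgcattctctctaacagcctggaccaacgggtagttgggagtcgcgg
The Kdr window held 5 such cores and those of Flt1 and Apln 4 each, while the windows of Tek and Esm1 held 2 and 4. Of 32841 RefSeq promoter windows of this length, 96% held at least 1, with a median of 3. The E-box CACGTG, which is its own reverse complement and which clock factors bind, was found in 0 of the 5 windows and in 7.15% of all. The windows of Kdr, Flt1 and Apln differed in base composition, with 60.7%, 70.7% and 64% G or C.

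The libraries held 10480788 to 13424078 counted reads, and 13021 genes passed the filter on low counts (at least 10 reads in enough libraries), the 10 genes among them. Levels are given as CPM, read counts divided by the library size after TMM scaling, with the SD over 3 mice. Differences are log2 fold changes from edgeR's quasi-likelihood test on all 15 libraries, and a gene is said to rise or fall when its p, adjusted by the Benjamini-Hochberg method over the 13021 genes, is under 0.05. The 3 libraries of a group came from separate samples, and p-values measure the spread between them. One feature of the library names touches several results. All 6 libraries of RNLS-treated hearts and WTSHAM replicate 1 have names that start with WM or RM in capitals, while the other 8 start with WT, wm or s. What these letters stand for is not given in the sources used here, and in the CKD hearts they cannot be told apart from the treatment.

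Per kilobase, Cdh5 and Pecam1 were the most abundant of the 10 genes. Averaged over the 15 libraries, the deposited FPKM values (fragments scaled to gene length and library size) were 73.4 ± 10.7 (SD) for Cdh5, 66.9 ± 11.6 for Pecam1 and 44.0 ± 8.93 for Kdr. Tek at 17.3 ± 2.39 FPKM and Flt1 at 16.8 ± 2.98 came next and did not differ beyond their spread, followed by Aplnr at 13.2 ± 6.32. Vwf at 7.94 ± 4.86 and Apln at 6.42 ± 1.82 FPKM were also within their spread of each other. Angpt2 (1.52 ± 0.359 FPKM) and Esm1 (0.768 ± 0.349 FPKM) were the lowest. Esm1 rested on 6 to 40 reads per library and Angpt2 on 35 to 86, against 2974 to 5800 for Kdr, so that changes in these low genes are measured with much wider error. In an F-test over the 5 groups, 8 of the 10 genes differed between groups (edgeR, adjusted p from 0.0021 for Pecam1 to 0.0347 for Apln), where 22.2% of all genes tested did. Angpt2 (adjusted p = 0.0928) and Esm1 (adjusted p = 0.795) did not pass.

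**Figure D1:**
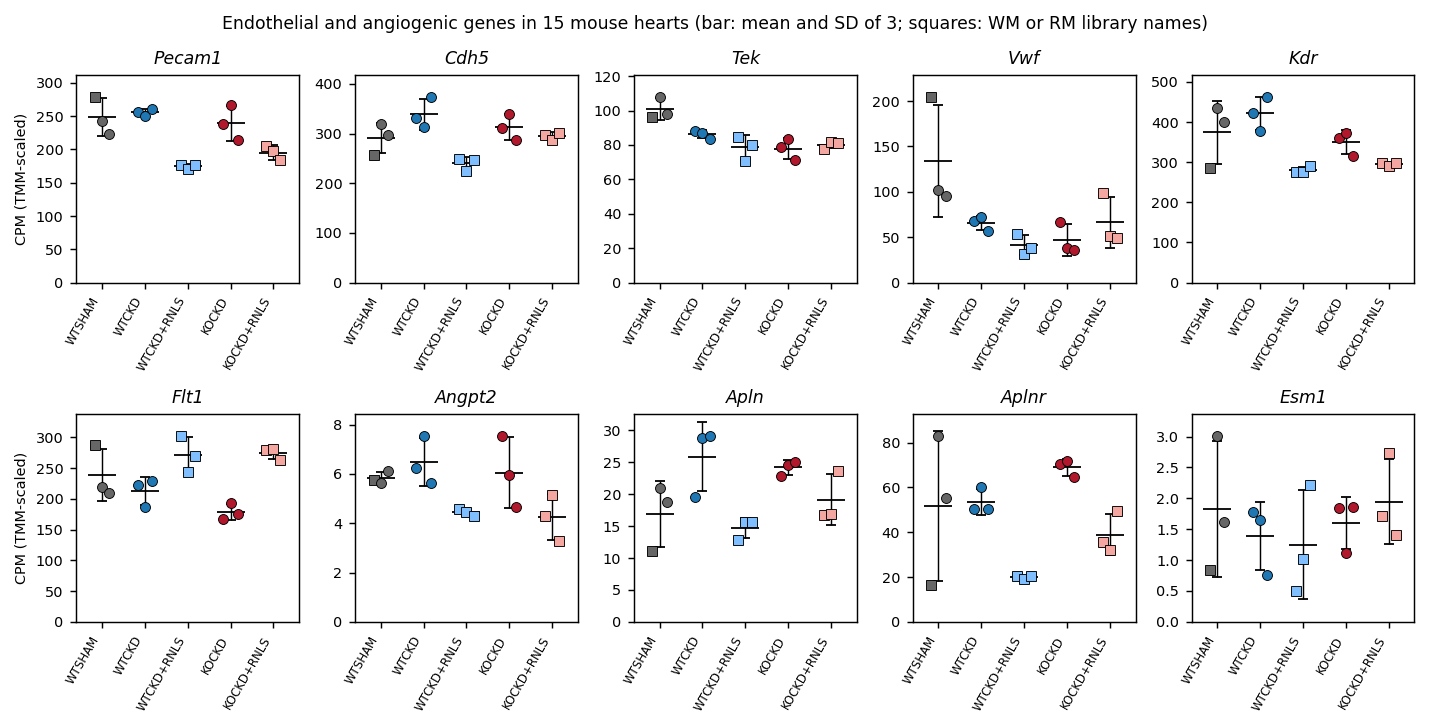
Level of each of the 10 genes in every heart (y axis, TMM-scaled CPM from 0) by group (x axis), with the mean and SD of 3 mice as bars and squares for libraries named WM or RM. The WTCKD+RNLS hearts sit below the WTCKD hearts for Pecam1, Cdh5, Kdr, Apln and Aplnr and above them for Flt1, and WTSHAM replicate 1 lies close to the RNLS hearts for Kdr, Flt1 and Aplnr.

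The comparison of WTCKD with WTSHAM asks how these genes differ with CKD in wild-type hearts. The WTCKD mice also received the control vector, which the labels do not give for the sham mice, so that CKD and vector cannot be told apart. None of the 10 genes passed the test, where 2.3% of all genes tested did. At an unadjusted p under 0.05 edgeR gave 4 of the 10, namely Cdh5, Tek, Vwf and Apln, against 2298 of 13021 genes, and DESeq2 called 0 of the 10 after adjustment. Vwf was at 205, 102 and 95.5 CPM in the WTSHAM hearts and at 68.0, 71.7 and 56.6 CPM in the WTCKD hearts. Every CKD heart was below every sham heart, and the spread in the sham group came mostly from replicate 1. The log2 fold change was -1.03 (SE 0.32, adjusted p = 0.101), and without WTSHAM replicate 1 it was -0.59 (adjusted p = 0.278). Summed markers of platelets, which also make Vwf, were at 35.5 CPM in WTSHAM replicate 1 and at 10 to 12 CPM in the other sham hearts, and their part in the Vwf level was not tested.

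Apelin differed in the other direction. Apln was at 11.1, 20.9 and 18.8 CPM in the WTSHAM hearts and 19.6, 28.8 and 29.1 CPM in the WTCKD hearts, which overlap, with a log2 fold change of 0.61 (SE 0.20, adjusted p = 0.132). Its receptor Aplnr ranged from 16.3 to 82.9 CPM within the sham group (16.3, 82.9 and 55.5) and was even in WTCKD (50.3, 60.4 and 50.4). The log2 fold change of Aplnr was 0.05 (SE 0.34, adjusted p = 0.955), and it turned to -0.37 without WTSHAM replicate 1 and to -0.05 without WTCKD replicate 2. Tek, the angiopoietin receptor, was at 101 ± 6.35 CPM (SD, n = 3) in sham and 86.2 ± 2.34 CPM in CKD hearts, without overlap and with a log2 fold change of -0.22 (SE 0.08, adjusted p = 0.162). Pecam1, Kdr, Flt1, Esm1 and Angpt2 had overlapping groups and adjusted p-values of 0.511 to 0.863. Of the pathway genes described further on, 1 of 120 rose with CKD. This was S1pr1, the receptor for sphingosine 1-phosphate that stabilises vessels, at 88.8 ± 12.6 CPM in WTSHAM and 165 ± 18.1 CPM in WTCKD (log2 fold change 0.89, SE 0.15, adjusted p = 0.00350).

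The comparison of WTCKD+RNLS with WTCKD asks what cardiomyocyte RNLS overexpression does in wild-type CKD hearts, and it shares the WTCKD hearts with the comparison above. Here 5 of the 10 genes fell. These were the junctional adhesion genes Pecam1 and Cdh5, the VEGF receptor Kdr, and both apelin genes. None rose. Among all genes tested, 4.47% passed, 2.28% lower and 2.19% higher. The median log2 fold change over the 10 genes was -0.54, beside 0.01 over all genes tested. In whole tissue, fewer endothelial cells and less RNA per endothelial cell cannot be told apart.

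Pecam1 was at 256, 251 and 261 CPM in the WTCKD hearts and at 176, 171 and 177 CPM in the WTCKD+RNLS hearts. The groups were tight and well apart, with a log2 fold change of -0.55 (SE 0.09, adjusted p = 0.00406). Cdh5, the adherens junction cadherin of endothelium, was at 330.4, 313 and 374 CPM in WTCKD and 249, 225 and 247 CPM in WTCKD+RNLS. Every RNLS heart was below every vector heart, with a log2 fold change of -0.50 (SE 0.09, adjusted p = 0.00782). These were the 2 genes whose call did not depend on any single mouse, since leaving out each of the 6 libraries in turn left adjusted p-values of 0.0066 to 0.0202 for Pecam1 and 0.0145 to 0.0307 for Cdh5.

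The 2 VEGF receptors did not move together. Kdr, the main signalling receptor, was at 423, 378 and 463 CPM in WTCKD and at 276, 276 and 289 CPM in WTCKD+RNLS. The RNLS hearts were below and hardly varied among themselves, with a log2 fold change of -0.59 (SE 0.12, adjusted p = 0.0134), which lost its call in 1 of 6 fits that left out a library (adjusted p = 0.0539 without WTCKD+RNLS replicate 1). Flt1, the receptor that also serves as a VEGF trap, was at 223, 186 and 228 CPM in WTCKD and 302, 243 and 270.4 CPM in WTCKD+RNLS. All 3 RNLS hearts were above all 3 vector hearts, but the log2 fold change of 0.35 (SE 0.12, adjusted p = 0.103) did not pass the edgeR test. In DESeq2 the adjusted p was 0.0490. It was 0.0375 in edgeR without WTSHAM replicate 1, a fit added after seeing the data.

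The largest fall among the 10 genes was that of the apelin receptor. Aplnr was at 50.3, 60.4 and 50.4 CPM in WTCKD and at 20.4, 19.2 and 20.3 CPM in WTCKD+RNLS, with a log2 fold change of -1.42 (SE 0.36, adjusted p = 0.0329). The 2 groups were far apart and each was narrow. The call was lost in all 6 fits that left out 1 of these libraries (edgeR, adjusted p = 0.0551 to 0.112). The test takes its spread from all 5 groups, and with WTSHAM replicate 1, where Aplnr was far from the other sham hearts, left out of the fit the adjusted p was 9.90e-05. That fit was added after seeing the data. Leaving out an extreme heart narrows the spread, so the lower p follows in part from the choice. Apln was at 19.6, 28.8 and 29.1 CPM in WTCKD and at 12.9, 15.7 and 15.6 CPM in WTCKD+RNLS. Its log2 fold change was -0.81 (SE 0.21, adjusted p = 0.0352), and 4 of the 6 fits that left out a library lost the call.

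The remaining 4 genes did not pass. Angpt2 was at 6.26, 7.53 and 5.62 CPM in WTCKD and 4.59, 4.46 and 4.29 CPM in WTCKD+RNLS, without overlap and with a log2 fold change of -0.54 (SE 0.20, adjusted p = 0.152). Its receptor Tek differed less, at 86.2 ± 2.34 CPM in WTCKD and 78.5 ± 6.99 CPM in WTCKD+RNLS (log2 fold change -0.13, SE 0.08, adjusted p = 0.390). Vwf was at 53.5, 31.9 and 38.1 CPM in WTCKD+RNLS, below the WTCKD hearts, with a log2 fold change of -0.67 (SE 0.33, adjusted p = 0.265). Esm1, a marker of sprouting tip cells, was between 0.501 and 2.22 CPM in both groups and gave no interpretable difference (log2 fold change -0.14, SE 0.55, adjusted p = 0.920). Counting genes whose groups did not overlap, 7 of the 10 were lower in WTCKD+RNLS, where 10.8% of all genes were, and 1 was higher, where 10.4% were.

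**Figure D2:**
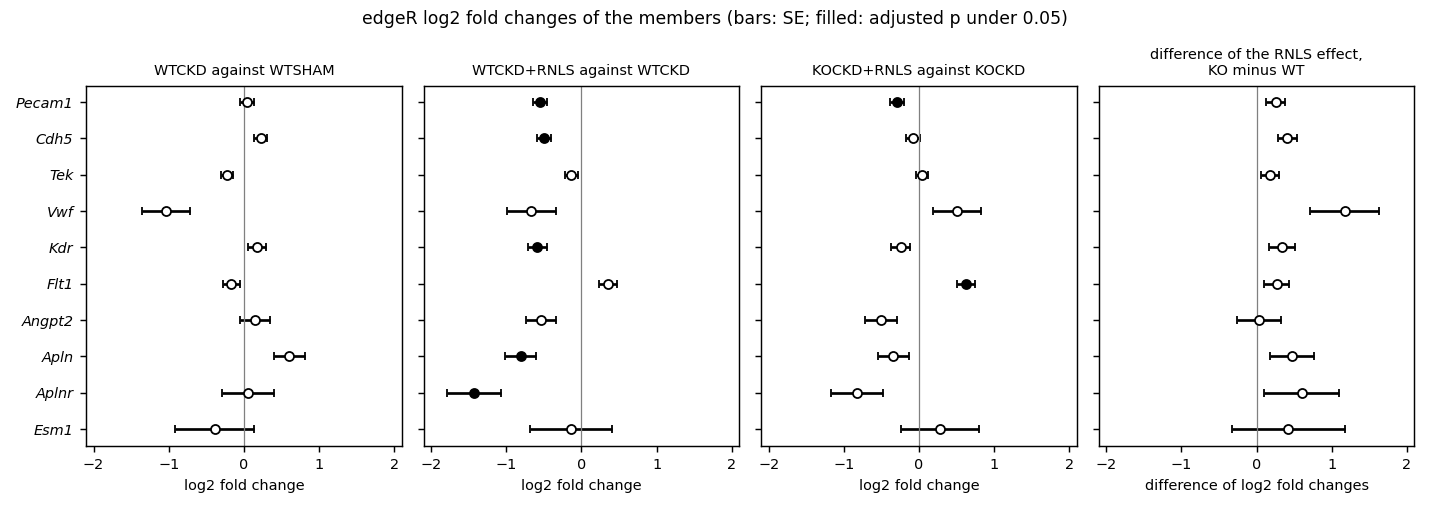
Log2 fold change of each gene (x axis, points with SE bars) in 3 comparisons and, at the right, the knockout minus the wild-type RNLS effect, with filled points for an edgeR adjusted p under 0.05. In wild-type hearts 5 genes fell with RNLS and in knockout hearts Pecam1 fell and Flt1 rose, while no difference between the genotypes passed.

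In the knockout, RNLS overexpression can be read against hearts labelled as lacking the mouse's own RNLS. Of the 10 genes, Flt1 rose and Pecam1 fell in KOCKD+RNLS against KOCKD. Many more genes passed in this comparison, 16.1% of those tested, 7.04% lower and 9.05% higher, so that 2 of 10 is close to that share. Flt1 was at 167, 193 and 176 CPM in KOCKD and at 279, 281 and 264 CPM in KOCKD+RNLS. The groups were far apart, with a log2 fold change of 0.62 (SE 0.12, adjusted p = 0.00397), and the call was kept in all 6 fits that left out a library. Pecam1 was at 238, 267 and 214 CPM in KOCKD and at 205, 197 and 183 CPM in KOCKD+RNLS. The log2 fold change was -0.29 (SE 0.09, adjusted p = 0.0395), and 5 of the 6 such fits lost the call, with adjusted p-values from 0.0234 to 0.193.

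The apelin pair was lower again but did not pass. Aplnr was at 70.3, 71.7 and 64.8 CPM in KOCKD and 35.7, 31.9 and 49.3 CPM in KOCKD+RNLS, without overlap, with a log2 fold change of -0.83 (SE 0.34, adjusted p = 0.111). On the 6 knockout libraries alone the edgeR adjusted p was 0.00183. It was 0.00282 without WTSHAM replicate 1, a fit added after seeing the data. Apln was at 22.9, 24.6 and 25.1 CPM and 16.7, 16.9 and 23.7 CPM in these groups, which overlap (log2 fold change -0.34, SE 0.21, adjusted p = 0.268). Kdr was at 361, 374 and 316 CPM in KOCKD and 298, 291 and 297 CPM in KOCKD+RNLS. Every treated heart was below, but the log2 fold change of -0.24 (SE 0.12, adjusted p = 0.185) did not pass in the fit over all libraries and did (adjusted p = 0.0320) in that of the 6 knockout libraries.

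Cdh5 stood at 313 ± 26.3 CPM in KOCKD and 295 ± 7.95 CPM in KOCKD+RNLS (log2 fold change -0.09, SE 0.09, adjusted p = 0.563), and Tek at 77.8 ± 6.05 and 80.1 ± 1.97 CPM (0.04, SE 0.08, adjusted p = 0.761). Angpt2 had a log2 fold change of -0.51 (SE 0.21, adjusted p = 0.105), nearly the size seen in the wild type, with overlapping groups. Vwf was higher rather than lower, at 66.8, 37.6 and 35.6 CPM in KOCKD and 98.3, 51.6 and 48.8 CPM in KOCKD+RNLS, but the mice varied widely and the log2 fold change of 0.51 (SE 0.32, adjusted p = 0.302) did not pass. Esm1 was again too low to read (0.28, SE 0.52, adjusted p = 0.746). Without overlap, 3 of the 10 genes were lower, where 20% of all genes were, and 1 was higher, where 20.6% were.

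The genotypes themselves were compared as KOCKD against WTCKD, and 0 of the 10 genes and 0% of all genes passed in edgeR, while 2 of the 10 had an unadjusted p under 0.05, against 1318 of all 13021. These were Kdr, at a log2 fold change of -0.27 (SE 0.12, adjusted p = 0.487), and Flt1 at -0.25 (SE 0.12, adjusted p = 0.490), both lower in the knockout. DESeq2 called 0 of the 10 as well. Aplnr was higher in each KOCKD heart than in any WTCKD heart, with a log2 fold change of 0.36 (SE 0.34, adjusted p = 0.706). For the difference between the RNLS effects, knockout minus wild type, 0 of the 10 genes and 0% of all genes passed. All 10 estimates were above 0, from 0.03 for Angpt2 to 1.17 for Vwf (median 0.38, beside 0.01 over all genes), all resting on the same 12 hearts. The difference of Cdh5 was 0.41 (SE 0.13, adjusted p = 0.160), which DESeq2 put at an adjusted p of 0.0464. That of Vwf was 1.17 (SE 0.46, adjusted p = 0.209). In edgeR the count at an unadjusted p under 0.05 was 2 of the 10, against 2288 of all genes.

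The ratio of the 2 VEGF receptors separated the libraries more sharply than either gene. The FPKM ratio of Flt1 to Kdr was 0.284 ± 0.0115 (SD, n = 3) in WTCKD and 0.546 ± 0.0628 in WTCKD+RNLS, and 0.288 ± 0.0268 in KOCKD and 0.523 ± 0.0226 in KOCKD+RNLS. In WTSHAM it was 0.381 ± 0.161, with replicate 1 at 0.568, within the range of the RNLS hearts. For 3 of the 10 genes the libraries fell into 2 sets by name, with WTSHAM replicate 1 on the side of the RNLS hearts. The share of all genes that split in this way was not counted. For Aplnr this sham heart, at 16.3 CPM, was below the RNLS hearts, which were at 19.2 to 49.3 CPM. Kdr was at 275.7 to 298 CPM in the 7 libraries named WM or RM and at 316 to 463 CPM in the other 8. Flt1 was at 243 to 302 CPM in the former and 167 to 228 CPM in the latter. Aplnr, at 16.3 to 49.3 CPM and 50.3 to 82.9 CPM, did not overlap either. The other 7 genes overlapped between the 2 sets, and for Pecam1 WTSHAM replicate 1 was the highest of all 15 libraries (279 CPM), away from the RNLS hearts (171 to 205 CPM).

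**Figure D3:**
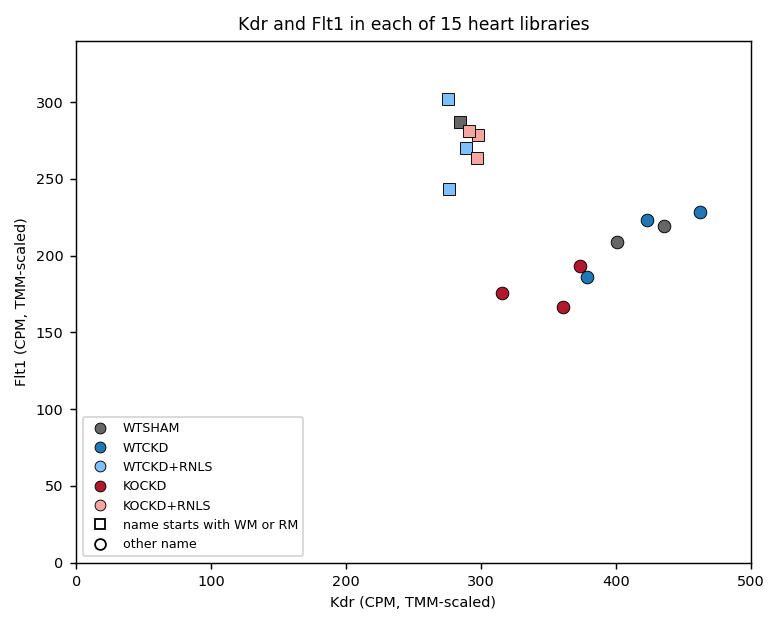
Flt1 (y axis) against Kdr (x axis), both in TMM-scaled CPM, for each of 15 hearts coloured by group, with squares for libraries named WM or RM. The 6 RNLS hearts and WTSHAM replicate 1 form a cluster with Kdr under 300 CPM and Flt1 over 240 CPM, and the other 8 libraries lie to its lower right.

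Since the name of 1 sham heart starts with WM, the prefix can enter the model as a term, estimated from that mouse against the other 2 sham mice. The term takes WM and RM as the same prefix, although WTCKD+RNLS replicates 1 and 2 are named RM and no sham heart is. With it, 1 of the 10 genes passed in WTCKD+RNLS against WTCKD, namely Pecam1 at a log2 fold change of -0.81 (SE 0.15, adjusted p = 0.0318). Kdr was then at -0.03 (SE 0.15, adjusted p = 0.966), Flt1 at -0.07, Apln at 0.03 and Cdh5 at -0.24 (SE 0.15, edgeR, adjusted p = 0.609). Aplnr turned from a fall to 0.66 (SE 0.30, adjusted p = 0.432). In KOCKD+RNLS against KOCKD, Aplnr rose by 1.26 (SE 0.29, adjusted p = 0.0383) on the log2 scale, Pecam1 fell, at -0.55 (SE 0.15, adjusted p = 0.0495) and Flt1 was at 0.20 (SE 0.17, adjusted p = 0.501). The prefix term itself was -2.09 for Aplnr (edgeR, adjusted p = 0.000972), -0.55 for Kdr (adjusted p = 0.0627) and 0.42 for Flt1 (adjusted p = 0.215), and 0.768% of all genes passed for it. The falls of Kdr, Apln and Aplnr in the wild type and the rise of Flt1 in the knockout were thus not seen in the model with the prefix. The fall of Cdh5 in the wild type did not pass there either. That model rests on 1 sham mouse, and in what this mouse differs from the other 2 was not tested. Summed immediate early genes, such as Fos and Egr1, were at 610 CPM in this mouse and at 194 and 171 CPM in the other sham mice. They were at 169 to 219 CPM in WTCKD+RNLS and 168 to 288 CPM in KOCKD+RNLS, and at 149 to 402 CPM in WTCKD and 142 to 417 CPM in KOCKD.

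Gene length moved with the groups as well. The trend was taken on each gene's log2 CPM relative to its own mean over the 15 libraries. On this scale long genes were lower than short genes in the KOCKD libraries, by -0.37 to -0.22, and higher in the KOCKD+RNLS libraries, by 0.17 to 0.23. In WTCKD+RNLS the same quantity was 0.13, -0.31 and 0.19, and in WTCKD it was -0.12 to 0.00. Flt1 is long, at 13929 bases as the deposited FPKM imply, longer than 96.5% of the genes tested, and Kdr is 7843 bases. With each library's trend on length taken out, the knockout difference of Flt1 was 0.28 (SE 0.13, adjusted p = 0.223) and no longer passed, while Kdr fell, at -0.47 (SE 0.12, adjusted p = 0.0354). Pecam1, which is 3333 bases, was at -0.28 (SE 0.09, adjusted p = 0.0728). In the wild type the 5 genes that fell also fell with the length trend removed, and Flt1 was at 0.26.

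**Figure D4:**
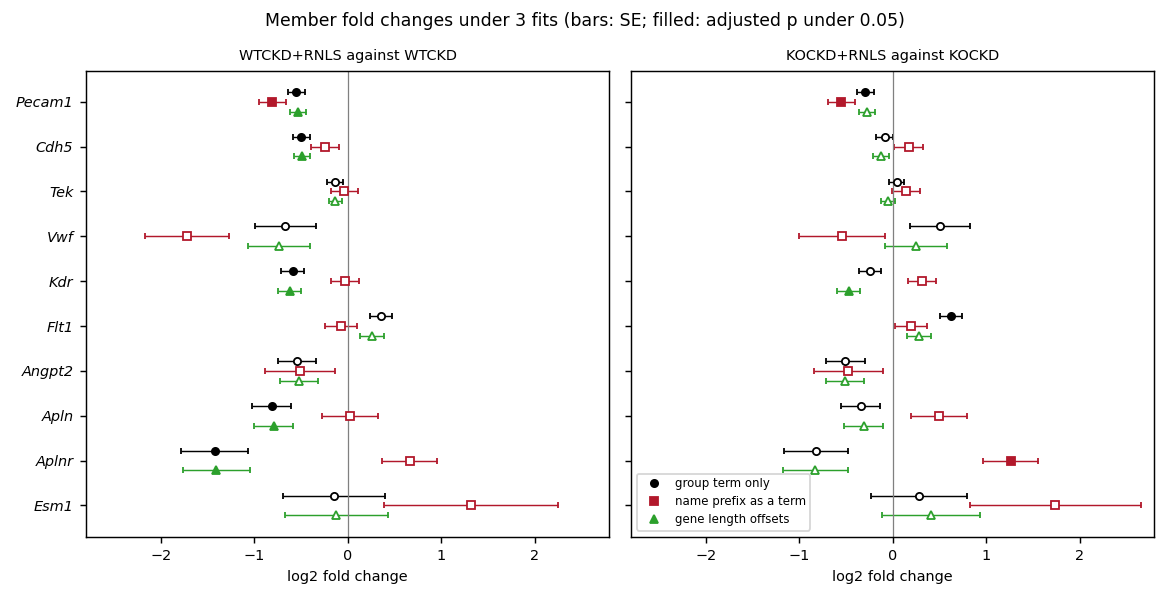
Log2 fold change with RNLS (x axis, points with SE bars) in wild-type hearts at the left and knockout hearts at the right, from the model with the group term only, with the library name prefix added, and with gene length offsets. Filled points have an edgeR adjusted p under 0.05. The prefix term moves Aplnr across 0 in both genotypes, and with the length offsets the difference of Flt1 in the knockout is 0.28 in place of 0.62.

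Each gene was also set against 23 other endothelial identity genes of the same library, as the difference in log2 CPM from their mean, to describe change beyond that of endothelial RNA as a whole. This is a description without a test. Aplnr went from -0.09 ± 0.17 in WTCKD to -1.23 ± 0.08 in WTCKD+RNLS and from 0.31 ± 0.07 in KOCKD to -0.42 ± 0.30 in KOCKD+RNLS, lower relative to the identity genes in both genotypes. Flt1 went from 1.89 ± 0.16 to 2.51 ± 0.10 in the wild type and from 1.68 ± 0.05 to 2.42 ± 0.08 in the knockout, upward in both. Cdh5 went from 2.57 ± 0.09 to 2.34 ± 0.09 and Pecam1 from 2.17 ± 0.05 to 1.88 ± 0.09 in the wild type, smaller shifts than in CPM. Tek moved up slightly on this scale, from 0.60 ± 0.10 to 0.73 ± 0.10.

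The partners of these genes in angiogenic signalling were followed in 14 lists of VEGF, angiopoietin, Notch, BMP, tip cell, endothelial subtype, flow, activation, apelin, anti-angiogenic and hypoxia genes, with 120 of 127 genes in the table passing the filter. In WTCKD+RNLS against WTCKD, 10 of the 120 fell and 0 rose, with a median log2 fold change of -0.20, where 2.28% of all genes fell and 2.19% rose. The largest fall was that of Cldn5, the claudin of endothelial tight junctions, which was at 17.2 to 51.1 CPM in WTCKD and at 4.90 to 6.26 CPM in WTCKD+RNLS (log2 fold change -2.77, SE 0.32, adjusted p = 0.000329). In sham hearts Cldn5 was at 16.1 to 19.3 CPM, replicate 1 included. Emcn, a sialomucin of capillaries and veins, fell by 0.61 on the log2 scale (edgeR, adjusted p = 0.00827). Vldlr, a lipoprotein receptor induced by hypoxia, fell by 0.41 (adjusted p = 0.0152). Of 11 tip cell genes 4 fell, with a median of -0.43, among them Nid2, a basement membrane nidogen (-0.65, SE 0.12, adjusted p = 0.00606), and Mcam, an adhesion molecule of vessels (-0.61, SE 0.14, adjusted p = 0.0189). Of 7 genes of endothelial activation 2 fell, Icam1 (-0.73) and Tnfaip3 (-0.98), which are targets of NF-kB. Of 23 genes of endothelial identity 3 fell.

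None of the VEGF and angiopoietin ligands in the lists passed the test. Vegfa, the ligand of both VEGF receptors, was at 257 ± 28.0 CPM in WTCKD and 299.5 ± 50.9 CPM in WTCKD+RNLS (log2 fold change 0.22, SE 0.14, adjusted p = 0.406). Vegfb and Pgf, which bind Flt1, were at 0.13 and 0.36, and Vegfc at -0.34, with adjusted p-values of 0.325 to 0.549. Nrp1, the coreceptor, and Flt4 were at -0.12 and -0.11 (adjusted p = 0.425 and 0.742). Angpt1, the activating ligand of TIE2, was at -0.48 and Tie1 at -0.21 (adjusted p = 0.373 and 0.291). Apela, the other ligand of the apelin receptor, was at 0 CPM in 4 of the 5 groups and at most 0.595 CPM in WTCKD, and was not tested. Dll4, Notch1, Nos3 and Klf2 had log2 fold changes of -0.19, 0.07, -0.25 and -0.50, and none passed. The hypoxia factors Hif1a (-0.33, SE 0.12, adjusted p = 0.141) and Epas1 (0.29, SE 0.08, adjusted p = 0.0563) did not pass either.

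In KOCKD+RNLS against KOCKD, 8 of the 120 pathway genes rose and 11 fell, with a median log2 fold change of -0.01. Over all genes 9.05% rose and 7.04% fell, so that the pathway genes were called about as often as any others. Cldn5 fell again, at 24.7 to 38.0 CPM in KOCKD and 7.03 to 9.75 CPM in KOCKD+RNLS (log2 fold change -1.81, SE 0.31, adjusted p = 0.00254). Genes of fatty acid uptake in capillaries fell with it, Cd36 at -0.47 (SE 0.08, adjusted p = 0.00296) and Fabp4 at -0.53 (SE 0.14, adjusted p = 0.0182). Egln3, the oxygen sensor PHD3, was at -1.25 (SE 0.23, adjusted p = 0.00326) and Esam, a junctional adhesion molecule, at -0.38 (SE 0.08, adjusted p = 0.00594). Of those that rose, Bmpr2, a BMP receptor, was at 0.58 (SE 0.10, adjusted p = 0.00229), Notch1 at 0.51 (SE 0.11, adjusted p = 0.00585) and Epas1 at 0.49 (SE 0.08, adjusted p = 0.00244). Ptprb, the phosphatase VE-PTP that restrains TIE2, was at 0.55 (SE 0.12, adjusted p = 0.00718), and the adhesion receptor Adgrf5 at 0.50 (SE 0.13, adjusted p = 0.0184). The other 3 were Nrp1, Efnb2 (0.35, SE 0.09, adjusted p = 0.0196), a ligand on arterial endothelium, and Clec14a (0.37, SE 0.12, adjusted p = 0.0416), a lectin-like protein of endothelium.

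Of the 23 identity genes 5 fell and 3 rose, of 11 capillary genes 3 fell, and of 11 tip cell genes 0 passed. Nrp1 rose as well (0.27, SE 0.08, adjusted p = 0.0305), while Vegfa, Vegfb, Vegfc, Pgf, Flt4, Angpt1, Tie1, Dll4, Nos3, Klf2 and Hif1a did not pass, at adjusted p-values of 0.164 to 0.851. With gene length offsets, 7 of the 120 passed in place of 19, 1 higher and 6 lower. Epas1 was the 1 that rose, and Bmpr2, Notch1, Ptprb and Adgrf5 had adjusted p-values of 0.09 to 0.307. With the name prefix as a term, 0 pathway genes passed in the wild type, where Cldn5 was at -2.56 (adjusted p = 0.0572), and 10 passed in the knockout. Of the 120, 0 passed in edgeR in KOCKD against WTCKD and 0 in the difference of the RNLS effect. There 14 and 32 had an unadjusted p under 0.05, and DESeq2 called 2 and 7.

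**Figure D5:**
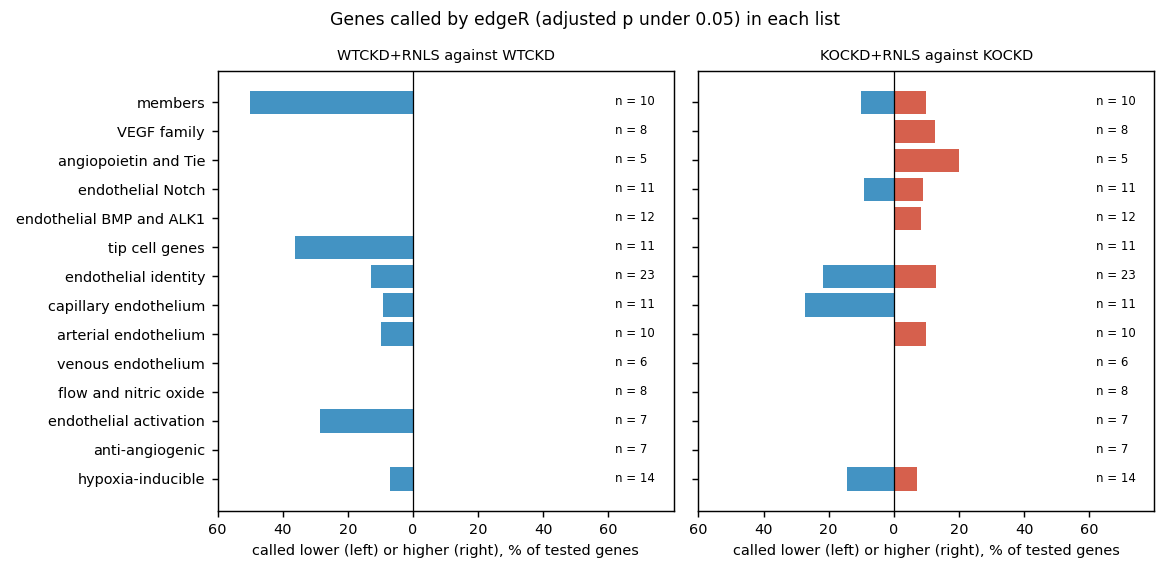
Share of tested genes in each list that fell (left of 0) or rose (right of 0) with RNLS at an edgeR adjusted p under 0.05 (x axis, percent), in wild-type hearts at the left and knockout hearts at the right, with the number tested per list. The 10 genes described here (members) and the tip cell list have the highest shares that fell in the wild type, and in the knockout falls and rises stand side by side.

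Marker genes of the main cell types were summed in each library. Over the 11 endothelial markers fixed for the check of the tissue, which include 6 of the 10 genes, levels were 1687 to 1906 CPM in WTCKD and 1307 to 1474 CPM in WTCKD+RNLS, and 1508 to 1733 and 1512 to 1574 CPM in KOCKD and KOCKD+RNLS. None of these markers was at 0, and the 10 cardiomyocyte markers summed to 99279 to 113671 CPM in WTCKD and 117708 to 119928 CPM in WTCKD+RNLS, with all treated hearts above. In the knockout they were 99511 to 105538 and 113027 to 115496 CPM. The 9 fibroblast markers overlapped between treated and vector hearts in both genotypes (2228 to 3662 and 1814 to 2601 CPM in the wild type, 2003 to 2733 and 2150.3 to 2436 CPM in the knockout), and 2 of them fell in each. Macrophage markers were at 418 to 568 CPM in WTCKD and 388 to 417 CPM in WTCKD+RNLS, and 384 to 461 and 279 to 364 CPM in the knockout groups. Summed atrial markers varied widely among the vector hearts, from 84.7 to 2330.0 CPM in WTCKD and 116 to 2647 CPM in KOCKD. They were at 121 to 474 CPM in WTCKD+RNLS and 128 to 286 CPM in KOCKD+RNLS. The 4 atrial markers tested had a median log2 fold change with RNLS of -2.88 in the wild type and -8.17 in the knockout. Of these 4, 0 fell by the test in the wild type and 3 in the knockout. Lung markers reached at most 1.3 CPM. Markers of the endocardium had a median log2 fold change of -0.97 with RNLS in the wild type and 0.09 in the knockout. By the test 0 of 6 passed in the wild type, and in the knockout 0 fell and 1 rose. Pericyte markers, of the mural cells of these vessels, were at 1345 to 1613 CPM in WTCKD and 1318 to 1681 CPM in WTCKD+RNLS. In the knockout they were at 1361 to 1436 CPM in KOCKD and 1593 to 1748 CPM in KOCKD+RNLS, without overlap, and 1 of 8, Abcc9, rose in each genotype. Of 6 smooth muscle and 7 lymphatic markers, none passed with RNLS in either genotype. Red cell markers were at 38.0 to 107 CPM in WTCKD and 217 to 527 CPM in WTCKD+RNLS, and at 51.1 to 375 and 73.6 to 293 CPM in the knockout groups. Circadian clock genes, whose summed level was 496 to 559.7 CPM in WTCKD and 847 to 1047 CPM in WTCKD+RNLS and 489 to 878 CPM in KOCKD and 909 to 1110.4 CPM in KOCKD+RNLS, differed for 10 of 13 genes in the wild type and 9 of 13 in the knockout. The part of any of these in the endothelial differences was not tested.

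Among all other genes tested, those whose level over the 15 libraries was most like the mean of the 10 standardized genes were Matn2 (Pearson r = 0.96), Ets1 (0.92), Man1c1 (0.90), Papss1 (0.90) and St3gal2 (0.90). These are descriptions over 15 libraries that share the group structure and the split by library name. Taken singly, the gene most like Aplnr was Sox4 (r = 0.95), that most like Kdr was Plpp3 (r = 0.93), that most like Flt1 was Zfyve9 (r = 0.95) and that most like Cdh5 was Sparcl1 (r = 0.92). Pecam1 paired with Adam15 (r = 0.96), Apln with Tnfaip8l1 (r = 0.95) and Tek with Samhd1 (r = 0.92). Vwf paired with Ifi204 (r = 0.92) and Esm1 with Cd109 (r = 0.80). Within the 10 genes, Apln and Aplnr had r = 0.84 over the 15 libraries and r = 0.81 after each group's mean was taken out, while Kdr and Flt1 had r = -0.58 and r = -0.37. The value of 0.81 leans on WTSHAM replicate 1, the lowest library for both Apln (11.1 CPM) and Aplnr (16.3 CPM). In the other sham hearts Apln was at 20.9 and 18.8 CPM and Aplnr at 82.9 and 55.5 CPM. The value of -0.37 for Kdr and Flt1 leans on the same heart, where Kdr was at 285 CPM and Flt1 at 287 CPM. In the other sham hearts Kdr was at 436 and 401 CPM and Flt1 at 219 and 209 CPM. Correlations without WTSHAM replicate 1 were not computed.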

How the data were processed

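Hearts of 15 mice in 5 labelled groups of 3 were profiled by RNA sequencing. By the study's methods, reads were trimmed with Trimmomatic, aligned with hisat2 and assigned to genes with htseq-count, and FPKM came from cufflinks. In the deposited values, counts and FPKM implied the same length for a gene in all 15 libraries, within 1 percent for 9217 of 9217 genes. The deposited table holds raw read counts per gene (10480788 to 13424078 per library), and a deposited table for each sample holds FPKM. The mouse build is named as GRCm39 in the submitters' processing notes and as mm9 in the study's methods, and the annotation, tool versions and strand setting were not given in the sources used here. FPKM were used to set levels side by side between genes, for the Flt1 to Kdr ratio, in an alternative, and, with the counts, to obtain gene length for the length trend and offsets. The library kit kept strand.

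Genes with fewer than 10 reads in too many libraries (edgeR's filterByExpr, total of at least 15) were left out, which kept 13021 of 17447. Counts were TMM-scaled and fitted with edgeR 4.0.16 in R 4.3.3 with the group as the term over all 15 libraries, and p-values were adjusted by Benjamini-Hochberg over the 13021 genes. The code was tested on simulated data. Alternatives were RLE size factors, no filter, a block for the replicate number, the libraries of the comparison alone, DESeq2 1.42.0, limma 3.58.1 on log2(FPKM + 1) and log2(FPKM + 0.1), the study's threshold (fold change over 1.25 and unadjusted p under 0.05), and each library left out. Further alternatives, the library name prefix as a term, gene length offsets and WTSHAM replicate 1 left out of every fit, were added after seeing the data.

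The 10 genes, the pathway lists and the marker lists were chosen with earlier results of these data known. The text names all 10 genes, the 5 pathway genes with the lowest p in each direction among those past the threshold, fixed signalling partners, marker genes, and the genes most like the 10, of which that for Angpt2 is not reported here. Icam1, Tnfaip3, Efnb2 and Clec14a fall outside this rule and were named after their values were seen. Libraries of a group differed from each other beyond counting noise, so none was counted as a repeat. Promoter windows came from RefSeq on GRCm38.p6, which held 5 of the 10 genes, and gene positions from GENCODE M1 on NCBIM37. Same-numbered replicates did not deviate together (correlations of -0.36 to 0.23), so they were not treated as pairs.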

Additional observations from a re-analysis of the deposited data

Results flagged for a closer look

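For Tek and Vwf, every RNLS heart lay below the mean log2 CPM of the vector hearts in the wild type and above it in the knockout, although the test of the difference did not pass for either. The fold change of Esm1 also differed in sign, but its hearts did not all lie on the same side. Tek, the receptor of the angiopoietins, had a log2 fold change of -0.13 in the wild type and 0.042 in the knockout, and the test of the difference gave 0.18 (SE 0.12, edgeR, adjusted p = 0.453). Vwf had -0.67 in the wild type and 0.51 in the knockout, with a difference of 1.17 (SE 0.46, edgeR, adjusted p = 0.209).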

How the results depend on the processing

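Of 900 fold changes of the 10 genes under the alternatives, 840 kept their direction and their side of the threshold. Most of the 840 had not passed to begin with and stayed so, so that this count says little about the calls. Of the rest, 26 lost a call and 9 gained one in the same direction, and 25 turned direction. The 10 genes give 5 falls with RNLS in the wild type, 1 fall and 1 rise in the knockout, and 0 calls elsewhere. Without a filter, 1 of the 10 passed in the knockout RNLS comparison, where 1912 of all genes did. With only its 6 libraries 4 did, in a fit where 3115 of all genes passed in place of 2095. With limma on log2(FPKM + 1) without a filter, 3 passed in the wild type, where 388 of all genes did. DESeq2 called 1 for the difference of the RNLS effect, beside 363 of all genes. The study's threshold gave 2 of the 10 for CKD, beside 1470 of all 13021 genes, and 2 for the difference, beside 1981. With RNLS it gave 7 in the wild type and 3 in the knockout, beside 1874 and 2902 of all genes.

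Of the 120 pathway genes, 1 passed for CKD. This became 2 without a filter, 2 with RLE size factors, 2 with gene length offsets, 3 with the name prefix, 4 with DESeq2 and 18 at the study's threshold. The 10 pathway genes called with RNLS in the wild type became 34 at that threshold and 0 with the prefix. The 19 in the knockout became 37 with only its libraries, 32 at that threshold, 10 with the prefix and 7 with length offsets. For KOCKD against WTCKD, 0 became 2 with DESeq2 and 10 at the threshold, and for the difference 7 and 31.

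With the name prefix as a term, 1 of the 10 genes passed in the wild type and 4 in place of 8 in the F-test. The direction turned for Aplnr with CKD (-0.37) and, with RNLS in the wild type, for Flt1 (-0.068), Apln (0.027), Aplnr (0.66) and Esm1 (1.32). In the knockout it turned for Cdh5 (0.17), Kdr (0.31), Vwf (-0.55), Apln (0.49) and Aplnr (1.26). With length offsets 1 gene passed in the knockout and Tek turned (-0.054). The cause was not tested.

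Over all genes, the 299 called for CKD became 99 with only the libraries of the comparison, 568 with DESeq2 and 1470 at the study's threshold. The 582 with RNLS in the wild type became 380 and 1874 with the first and last of these and 32 with the prefix. The 2095 in the knockout became 3115 with only its libraries, 444 with the prefix and 710 with length offsets. For KOCKD against WTCKD the count was 0 to 9, or 732 at the threshold, and for the difference it was 363 with DESeq2, 5 with limma on log2(FPKM + 1) without a filter and 1981 at the threshold.

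The replicate numbers do not pair the mice, since same-numbered deviations correlated at -0.36 to 0.23. With the replicate block, 1 of the 10 genes passed in edgeR for CKD (Vwf, log2 fold change -0.93, adjusted p = 0.00887). With RNLS in the wild type 6 did, Vwf (-0.72, adjusted p = 0.0308) added. Of all genes, 253 and 522 passed in these comparisons with the block.

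Leaving out each library in turn gave 2 to 4 of the 10 with RNLS in the wild type and 1 to 2 in the knockout. Pathway genes numbered 1 to 3 for CKD, 2 to 10 in the wild type and 8 to 14 in the knockout. In the wild type 2 of the 10 genes passed without WTCKD+RNLS replicate 1 and 3 without WTCKD replicate 2, WTCKD replicate 3 or WTCKD+RNLS replicate 3, and 2 and 4 pathway genes without WTCKD replicate 2 and WTCKD+RNLS replicate 1. In the knockout every library but KOCKD replicate 3 lowered the 10 genes' count to 1 and the pathway count to 8 to 12 when left out. For CKD, 3 pathway genes passed without WTSHAM replicate 1 or WTCKD replicate 2 and 2 without WTCKD replicate 1. All genes ranged over 136 to 380, 209 to 761 and 862 to 1476 in these comparisons. Directions turned for CKD in Pecam1 (-0.031 to 0.13), Aplnr (-0.37 to 0.57) and Esm1 (-0.72 to 0.17). With RNLS they turned in the wild type for Esm1 (-0.88 to 0.23) and in the knockout for Tek (-0.013 to 0.10) and Esm1 (-0.039 to 0.46). For KOCKD against WTCKD they turned in Esm1 (-0.094 to 0.41) and Angpt2 (-0.28 to 0.062), and for the difference in Angpt2 (-0.13 to 0.22). With WTSHAM replicate 1 out of the fit, 6 of the 10 passed with RNLS in the wild type (Flt1 added) and 3 in the knockout (Aplnr added). Of all genes, 795 and 2365 passed in these 2 fits. Depth limits what can be read from Esm1 and Angpt2.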
